A study of Mus musculus with 8 samples.

Results

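The genes described here encode the 5 NF-kB subunits (Nfkb1, Nfkb2, Rel, Rela and Relb), the IkB proteins Nfkbia, Nfkbib, Nfkbie and Nfkbiz, and Tnfaip3, the ubiquitin-editing enzyme A20. They were taken as every probe whose gene name in the array files is one of these 10 names, which gave 14 probes of 41174 different probes and 10 of 28786 different gene names. Nfkb1 had several probes, Rela had a pair, and the other 8 genes had 1 each. The levels are those of the value table that the authors deposited, on a log2 scale, where a step of 1 is a doubling of the signal.

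The series compared Ly-6C-high monocytes that reside in the spleen with those that circulate in the blood. All samples came from female C57BL/6 mice, an inbred laboratory strain, aged 8 to 12 weeks, which were healthy, untreated and fed chow. There were 4 blood samples and 4 spleen samples from 4 mice. The sort selected cells with much CD11b and Ly-6C on their surface and little I-Ab, CD11c, F4/80 or any of the lineage antigens Ly-6G, NK1.1, CD49b, B220 and CD90. From each sample of 1000 sorted cells, RNA of integrity number 8 or above was used, of which 5 ng went into the NuGEN WT-Ovation Pico amplification, and the product was labelled with Cy3 for 1-colour Agilent arrays. Per the design text every mouse gave cells of both tissues, yet the labels do not tie sample numbers to mice. P-values therefore measure the spread between these samples, taken as unpaired. In RNA of a sorted population, fewer cells of a type and less RNA per cell cannot be told apart.

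NF-kB is a family of dimeric transcription factors that share the Rel homology domain. In resting cells the dimers are held in the cytoplasm by IkB proteins, and signals from Toll-like receptors or cytokine receptors lead to phosphorylation and degradation of IkB and entry of the dimers into the nucleus. In monocytes and macrophages the pathway is known for inducing cytokines, chemokines, adhesion molecules and survival genes. Several of its own inhibitors, Nfkbia and Tnfaip3 among them, are classical target genes that end the response.

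Of the 10 members, 5 had a promoter with a match to the binding motif of NF-kB, and stretches with a match are shown for that reason. RefSeq promoter windows of mouse build GRCm38.p6, covering the 250 bases before a transcription start, were held for 7 of the 10 genes, with 10 start sites between them. Nfkb1, Relb and Nfkbiz had no entry in the table. The kB consensus, searched on both strands, matched in at least 1 window of 5 of these 7 genes, namely Nfkb2, Rel, Nfkbia, Nfkbie and Tnfaip3, and in 7 of their 10 windows overall. Of all 32851 windows, 1281 held a match (3.90%). In the lines below the capitals mark the matched bases, the sequence runs 5′ to 3′ on the strand of the gene, and overlapping matches are merged. The coordinates are chr10:19015411-19015452 on the minus strand for Tnfaip3, chr12:55492648-55492696 on the minus strand for Nfkbia, chr17:45555574-45555623 on the plus strand for Nfkbie, chr11:23771031-23771081 on the minus strand for Rel, and chr19:46304678-46304736 and chr19:46305685-46305734 on the plus strand for 2 starts of Nfkb2.
Tnfaip3: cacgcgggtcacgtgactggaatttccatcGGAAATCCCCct
Nfkbia: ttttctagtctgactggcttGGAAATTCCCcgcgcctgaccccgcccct
Nfkbie: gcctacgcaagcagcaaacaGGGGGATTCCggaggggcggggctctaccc
Rel: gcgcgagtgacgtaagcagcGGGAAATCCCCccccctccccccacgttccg
Nfkb2, upstream start: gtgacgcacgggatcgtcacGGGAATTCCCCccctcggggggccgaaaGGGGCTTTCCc
Nfkb2, downstream start: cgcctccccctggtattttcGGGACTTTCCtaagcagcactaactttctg

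The Tnfaip3 and Nfkbia stretches end at the base before the transcription start, and their matches begin 12 and 29 bases before it. The windows of Rela and Nfkbib held no match, which says only that these letters are not in those windows. A further match in Tnfaip3, 125 bases before the start, and the window of another Nfkb2 start are not shown. A match is a description of the sequence and was not measured as a binding site here.

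Each array held 45018 spots. The 5 arrays whose scanner file ranked its probes as the table did, blood 4 and all 4 spleen arrays, detected 26539 to 29571 probes well above background. With 4 arrays per tissue, their number limits the precision. For blood 1, 2 and 3 the deposited scanner file is of a different array from the table's column, with rank correlations of 0.842, 0.852 and 0.872, so results for the members are also given without those columns. A table level of 6.8 was taken as the background level, and 18266 genes whose probe was this bright on 4 or more of the 8 arrays were tested with limma. No gene had a Benjamini-Hochberg adjusted p under 0.05 (0% of genes by limma), 992 had an unadjusted p under 0.05 (5.43%), and the median difference over all genes was −0.01 on the log2 scale. Ly-6C-high monocyte markers were bright in every sample, with Fn1 at 14.48 in blood and 13.94 in spleen. The 6 markers with a value on all 8 arrays, of 11 listed, averaged 12.19 to 12.46 in blood and 11.96 to 12.48 in spleen. Of the 8 tested, 2 had a higher mean in spleen and 6 a lower, with a median difference of −0.24. Fn1 (−0.54) and Ccr2 (−0.41), which lacked a value on some array, were among the lower and are not in that average. On average, neutrophil markers were brighter in spleen: the mean level of the 11 tested of 13 listed was 7.46 to 8.65 in blood and 10.17 to 11.32 in spleen. S100a8, the brightest, was at 8.82 ± 1.59 in blood and 14.40 ± 0.71 in spleen (SD, n = 4 each). Of the 11, 10 had a higher mean in spleen and 1 a lower, but not all by much. Mmp8 was at 11.07 in blood and 10.99 in spleen, and Csf3r at 8.78 and 8.81. Chil1 was below the background level in all 4 blood samples and Lcn2 in 3, and both passed the filter through their spleen values.

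All 10 genes were above the background level in every sample with a value, and none differed between spleen and blood at the adjusted threshold. The mean was higher in spleen for 8 of the 10, against 48.8% of all tested genes, and the median difference was 0.25 (log2, spleen minus blood) with a median standard error of 0.31. The 5 subunits had a median difference of 0.14, with 3 higher and 2 lower in spleen. The 4 IkB genes and Tnfaip3 were all higher on average in spleen, with a median difference of 0.50. Tnfaip3 alone had an unadjusted p under 0.05, against 5.43% of all genes, and it alone had groups that did not overlap, against 3.3% of all genes in either direction and 1.88% with all spleen samples above. The members were chosen with results of these data known, so these counts describe them and test nothing about the set.

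**Figure D1:**
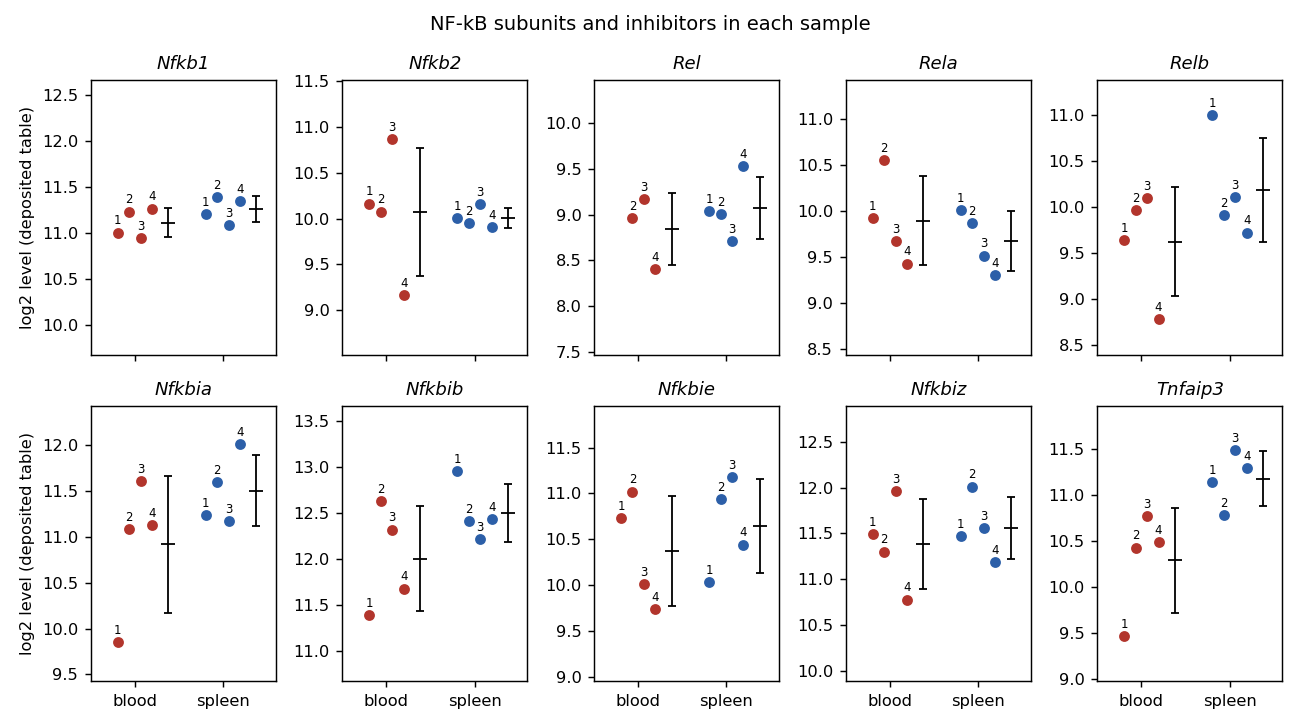
Level of each of the 10 genes in every sample (log2, deposited table; all panels span the same number of log2 units), with blood in red, spleen in blue, the sample number beside each point and the mean with its SD beside each group. Only the Tnfaip3 groups do not overlap, and Rel has no value in blood 1.

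The plot of levels by sample shows how close the groups lie for most members, and how often a single blood sample sets the spread.

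Nfkb1 encodes p105, the precursor of the DNA-binding subunit p50, which forms the classical heterodimer with RelA. Its brightest probe was at 11.004, 11.23, 10.95 and 11.27 in blood 1 to 4 and at 11.20, 11.39, 11.08 and 11.35 in spleen 1 to 4. The samples of both tissues were interleaved and spanned only 0.45 log2 units, the narrowest range of the 10 genes. The means were 11.11 ± 0.16 and 11.26 ± 0.14 (SD, n = 4 each), a difference of 0.14 ± 0.19 (SE; 95% interval −0.29 to 0.58; adjusted p = 1.0, limma). This probe lies on mm7 at chr3:135379090-135379151 on the minus strand and was spotted 10 times per array, with an SD between spots of 0.03 to 0.09 log2 units in the 5 matching files.

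Rela encodes p65, the subunit that carries the transactivation domain of the classical dimer. It was at 9.92, 10.55, 9.67 and 9.42 in blood and at 10.005, 9.87, 9.51 and 9.30 in spleen. Blood 2 was the highest and spleen 4 the lowest, and the rest were mixed. The difference was −0.22 ± 0.29 (95% interval −0.87 to 0.43; adjusted p = 1.0, limma), and without blood 2 it was −0.00069.

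Rel encodes c-Rel, a subunit best known from lymphocytes that is also used by myeloid cells for interleukin-12 family cytokines. It had no value in blood 1, stood at 8.96, 9.17 and 8.41 in blood 2, 3 and 4, and at 9.04, 9.002, 8.71 and 9.53 in spleen. Blood 4 was the lowest and spleen 4 the highest, with the other samples between them in no order by tissue. The means were 8.84 ± 0.39 (SD, n = 3) and 9.07 ± 0.34 (SD, n = 4), a difference of 0.23 ± 0.29 (95% interval −0.43 to 0.89; adjusted p = 1.0, limma). It was 0.074 without spleen 4 and 0.35 without spleen 3.

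Nfkb2 encodes p100, which holds RelB in the cytoplasm and is cut to p52 in the non-canonical pathway. Its levels were 10.16, 10.08, 10.86 and 9.16 in blood and 10.004, 9.95, 10.16 and 9.90 in spleen. The spleen samples lay within the blood range, which had both the highest and the lowest sample of the 8. The SD was 0.70 in blood and 0.11 in spleen. The difference was −0.06 ± 0.33 (95% interval −0.80 to 0.68; adjusted p = 1.0, limma), and it ran from −0.36 without blood 4 to 0.20 without blood 3.

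Relb encodes the partner of p52. It was at 9.64, 9.97, 10.10 and 8.78 in blood and at 11.00, 9.91, 10.11 and 9.72 in spleen. Spleen 1 stood above all other samples, blood 4 below them, and the other 6 overlapped. The difference of 0.57 ± 0.37 (1.48-fold; 95% interval −0.26 to 1.39; adjusted p = 1.0, limma) was the largest among the subunits and was 0.28 without blood 4.

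Nfkbia encodes IkB-alpha, the inhibitor that is degraded and resynthesised within one activation cycle. Its levels were 9.85, 11.08, 11.61 and 11.13 in blood and 11.23, 11.59, 11.17 and 12.01 in spleen. Blood 1 was far below the other 7 samples, while blood 3 was above 3 of the 4 spleen samples. The means were 10.92 ± 0.75 and 11.50 ± 0.39 (SD, n = 4 each), a difference of 0.58 ± 0.38 (1.499-fold; 95% interval −0.26 to 1.43; adjusted p = 1.0, limma) and 0.23 without blood 1.

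Nfkbib encodes IkB-beta, an inhibitor that is degraded more slowly than IkB-alpha. It was at 11.39, 12.64, 12.32 and 11.68 in blood and at 12.96, 12.41, 12.22 and 12.44 in spleen. Blood 1 and blood 4 were below all the spleen samples and the other pair of blood samples was among them. The difference was 0.50 ± 0.31 (1.41-fold; 95% interval −0.20 to 1.202; adjusted p = 1.0, limma), and 0.29 without blood 1.

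Nfkbie encodes IkB-epsilon, an inhibitor whose resynthesis follows that of IkB-alpha with a delay. Its levels were 10.73, 11.02, 10.01 and 9.74 in blood and 10.03, 10.94, 11.18 and 10.44 in spleen. Samples of both tissues were interleaved over the whole range. The difference was 0.27 ± 0.36 (95% interval −0.53 to 1.08; adjusted p = 1.0, limma), and it ran from 0.061 without blood 4 to 0.49 without blood 2.

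Nfkbiz encodes IkB-zeta, a nuclear IkB protein that acts with p50 as a cofactor of secondary response genes such as Il6. It was at 11.49, 11.30, 11.96 and 10.78 in blood and at 11.47, 12.01, 11.56 and 11.19 in spleen. Blood 4 was the lowest sample and spleen 2 the highest, with blood 3 next to it. The difference was 0.17 ± 0.29 (95% interval −0.48 to 0.83; adjusted p = 1.0, limma), and −0.03 without blood 4.

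Tnfaip3 encodes A20, which removes activating ubiquitin chains from signalling proteins such as RIPK1 and TRAF6 and so limits IkB kinase activity. Its levels were 9.47, 10.43, 10.77 and 10.49 in blood and 11.15, 10.79, 11.49 and 11.30 in spleen. Every spleen sample was above every blood sample, though blood 3 at 10.77 and spleen 2 at 10.79 lay close together. The means were 10.29 ± 0.57 and 11.18 ± 0.30 (SD, n = 4 each), a difference of 0.89 ± 0.31 or 1.85-fold (95% interval 1.15-fold to 2.99-fold). Its unadjusted p of 0.0173 was the 421st smallest of all tested genes, and its adjusted p was 0.740 (limma). With single samples left out the difference ran from 0.61 without blood 1 to 1.05 without blood 3, and the adjusted p was 0.680 or more. The scanner files of blood 1, 2 and 3 hold other arrays than the table, and the tissue of those arrays was not checked. From all 8 scanner files as labelled, the Tnfaip3 difference was 0.17 ± 0.60 with 75th percentile scaling (adjusted p = 0.944, limma). It was 0.11 ± 0.52 with normexp and quantile normalisation (adjusted p = 0.976, limma).

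**Figure D2:**
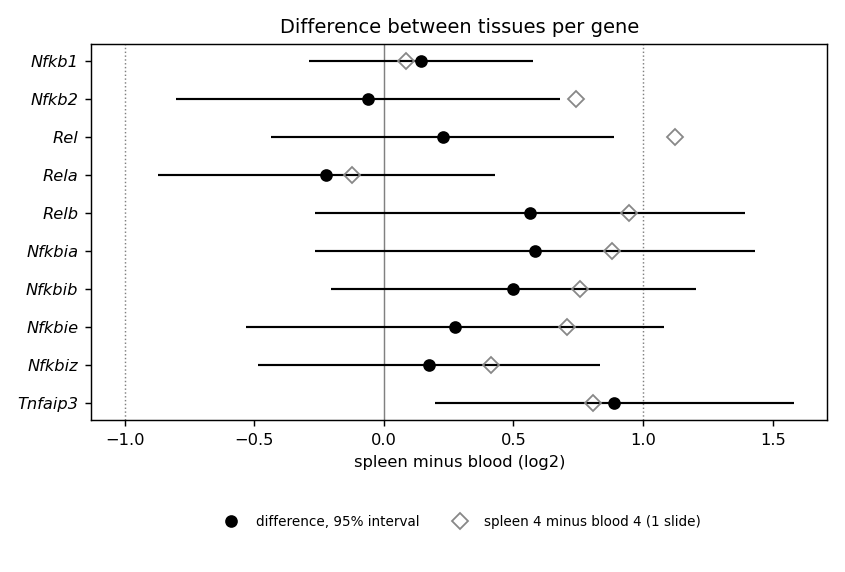
Difference between tissues for each gene (log2, spleen minus blood): points are the limma estimate over all samples, lines the 95% interval, open diamonds the difference between spleen 4 and blood 4, which share a slide, and dotted lines a 2-fold change. The interval of Tnfaip3, 0.20 to 1.58, is the only one that does not contain 0.

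The plot of differences sets the estimates beside a pair of arrays from 1 slide. For Nfkb1, Nfkb2, Rel, Rela and Nfkbiz, 5 of the 10 genes, the whole 95% interval lay within a 2-fold change in either direction, as it did for 55.1% of all tested genes. For Relb, Nfkbia, Nfkbib, Nfkbie and Tnfaip3 the upper end of the interval passed a 2-fold higher level in spleen. Spleen 4 was above blood 4 for 9 of the genes, with Rela at −0.12 as the exception, and the median difference in this pair was 0.75. Blood 4 was the lowest of all samples for 5 of the genes, and the share of all genes higher in this pair was not examined. No other slide held arrays of both tissues that were known to match the table.

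With the table restricted to the 5 matching arrays, where blood 4 is the only blood sample and is assumed to vary like the spleen samples, the median difference over the members was 0.73. Tnfaip3 differed by 0.69 ± 0.40, Nfkbia by 0.37 ± 0.44 and Nfkbib by 0.83 ± 0.41. Relb differed by 1.41 ± 0.55, Rel by 0.66 ± 0.42, Nfkbie by 0.91 ± 0.52 and Nfkbiz by 0.78 ± 0.42. Nfkb2 was higher in spleen by 0.84 ± 0.34 and Rela by 0.25 ± 0.41, both opposite in sign to the values over all samples, and Nfkb1 was at −0.0082 ± 0.35. All 10 adjusted p-values were 1.0 (limma).

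**Figure D3:**
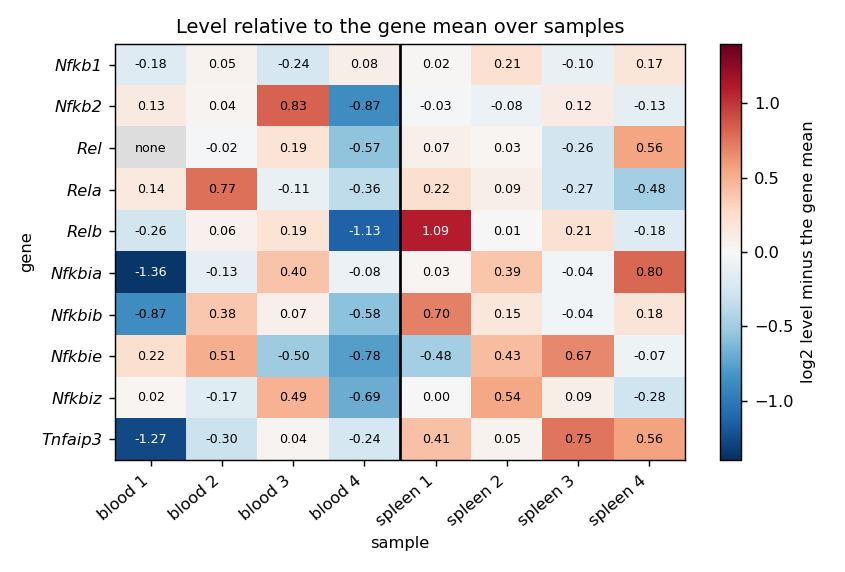
Level of each gene in each sample relative to the mean of that gene over the samples (log2; red above, blue below, grey without a value), with a line between blood and spleen. Blood 4 is below the mean for 9 of the 10 genes, all but Nfkb1, and the deepest values are Nfkbia and Tnfaip3 in blood 1 and Relb in blood 4.

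The heat map of centred levels shows that the lowest values came from a pair of blood samples. Blood 4 was the lowest sample for Nfkb2, Rel, Relb, Nfkbie and Nfkbiz, and blood 1 for Nfkbia, Nfkbib and Tnfaip3. Blood 3 was the lowest for Nfkb1 and spleen 4 for Rela. The median of the members, relative to each gene's mean, was −0.18, 0.05, 0.13 and −0.57 in blood 1 to 4 and 0.05, 0.12, 0.02 and 0.05 in spleen 1 to 4. Over all tested genes this median stayed between −0.08 and 0.07 in every sample.

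**Figure D4:**
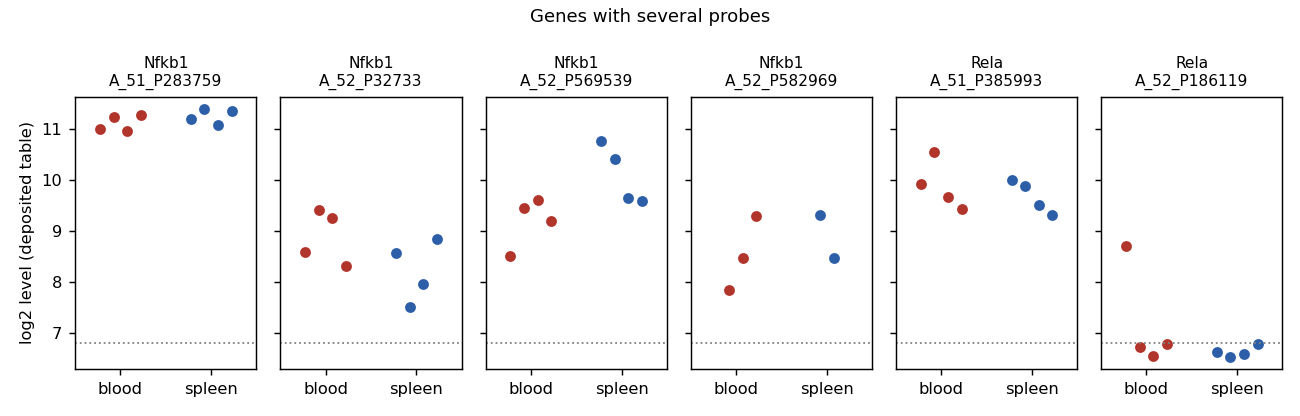
Levels of all probes of Nfkb1 and Rela in each sample (log2, deposited table), with blood in red, spleen in blue and the background level of 6.8 dotted. The Nfkb1 probes do not show the same direction, and the second Rela probe lies below the background level except in blood 1.

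The plot of genes with several probes shows that the direction of the Nfkb1 difference was not the same for all its probes. Apart from the brightest probe, Nfkb1 had 3 probes that lie 26.5, 27.4 and 33.5 kb from it toward the 5′ end of the gene. Probe A_52_P569539 (mm7, chr3:135405555-135405614, minus strand) was at 8.51, 9.44, 9.60 and 9.20 in blood and at 10.76, 10.41, 9.65 and 9.58 in spleen. Its difference was 0.91 ± 0.35 with an unadjusted p of 0.0265, as 5.57% of the 25471 tested probes had a p under 0.05, and an adjusted p of 0.802 (limma over probes). The groups overlapped, with blood 3 above spleen 4. Probe A_52_P32733 (chr3:135412575-135412634) went the other way, at 8.59, 9.41, 9.25 and 8.31 in blood and at 8.56, 7.51, 7.96 and 8.84 in spleen, a difference of −0.67 ± 0.36 (adjusted p = 0.960, limma). The third, A_52_P582969, had values in only 5 samples and so had no test, with 7.84, 8.46 and 9.29 in blood 2 to 4 and 9.31 and 8.47 in spleen 2 and 3. Only the brightest probe had an accession that RefSeq ties to Nfkb1, and the other 3 bear this gene name in the array files alone. Whether these 3 probes read exons or introns was not examined. The pair that differed in direction is shown as printed on the array, in lower case because no motif is marked.
Nfkb1, A_52_P569539: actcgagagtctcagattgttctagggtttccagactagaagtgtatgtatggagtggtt
Nfkb1, A_52_P32733: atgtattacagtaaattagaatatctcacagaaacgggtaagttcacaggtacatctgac

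Rela had a second probe, A_52_P186119 (mm7, chr19:5541942-5542001, plus strand), whose sequence is given because it stood at 8.70 in blood 1 alone. Its levels in the other samples were 6.71, 6.54 and 6.78 in blood and 6.62, 6.53, 6.58 and 6.77 in spleen, all below the background level, so the probe had no test. It was well above background on 2 of the 5 matching arrays. The brightest Rela probe, at chr19:5542438-5542497, showed no such value in blood 1.
Rela, A_52_P186119: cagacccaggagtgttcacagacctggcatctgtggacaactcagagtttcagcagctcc

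The remaining probes lie on mm7 at chr19:46208290-46208429 (Nfkb2, plus strand), chr11:23694004-23694064 (Rel, minus), chr7:17288747-17288806 (Relb, minus), chr12:53415998-53416493 (Nfkbia, minus), chr7:25693284-25693965 (Nfkbib, minus), chr17:43692455-43692514 (Nfkbie, plus), chr16:55653077-55653136 (Nfkbiz, minus) and chr10:18722874-18722933 (Tnfaip3, minus). The probes of Nfkbia, Nfkbib and Nfkb2 are 60 bases long but span 496, 682 and 140 bases of the genome. The Nfkbia and Nfkbib probes are shown as the inhibitor probes with the widest spans.
Nfkbia, A_51_P295192: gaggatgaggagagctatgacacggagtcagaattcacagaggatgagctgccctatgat
Nfkbib, A_51_P259459: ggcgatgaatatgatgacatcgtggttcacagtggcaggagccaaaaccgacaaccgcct

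The rest of the pathway was described with 6 lists, none of which had a gene past the adjusted threshold of limma. Among other IkB proteins and negative regulators, 14 of 15 were tested, 9 were higher and 5 lower in spleen, and the median difference was 0.15. Pdlim2, a ubiquitin ligase for nuclear RelA, was at 10.03 ± 0.14 in blood and 10.55 ± 0.13 in spleen (SD, n = 4 each). It was the only gene of the list with an unadjusted p under 0.05, against 5.43% of all genes (adjusted p = 0.764, limma). Its groups did not overlap, as in 3.3% of all genes, though it was named for its small p. The IkB kinases and the kinases above them, 11 of 11 tested, had 5 genes higher and 6 lower and a median of −0.10. Of these, Tab1, a subunit of the TAK1 kinase complex, differed by 1.21 ± 0.48 (adjusted p = 0.816, limma).

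Adaptors and ubiquitin ligases, 21 of 22 tested, had 11 genes higher and 10 lower in spleen and a median of 0.22. Tradd, the adaptor of TNF receptor 1, was at 8.61 ± 0.39 in blood and 9.89 ± 0.62 in spleen (SD, n = 4 each; difference 1.28 ± 0.34; adjusted p = 0.570, limma). Traf1, an adaptor that is itself an NF-kB target, differed by 1.11 ± 0.32 (adjusted p = 0.631, limma). For both, all spleen samples were above all blood samples, as for 1.88% of all genes, though they were named for their small p. Receptors that start the pathway, 17 of 19 tested, had 10 higher and 7 lower and a median of 0.06, which was 0.72 and 0.55 from all scanner files (75th percentile, and normexp with quantile). In 3 of the 17, against 5.43% of all genes, the unadjusted p was under 0.05: the differences were 0.61 for Nod1 and 0.94 for Tlr6, both receptors for bacterial products, and −0.95 for Il1rap, the shared chain of the interleukin-1 receptor (adjusted p of 0.786, 0.867 and 0.890, limma).

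**Figure D5:**
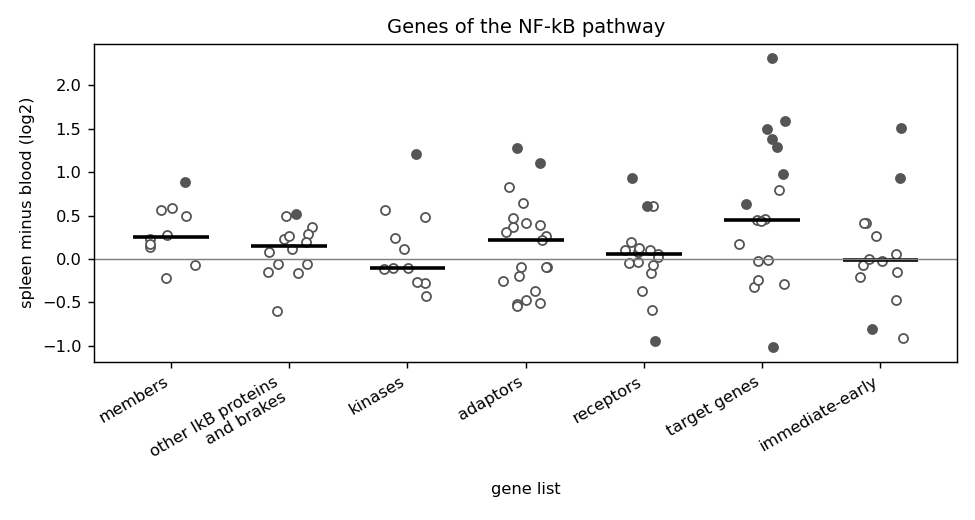
Difference between tissues (log2, spleen minus blood) of every tested gene of the NF-kB members and the 6 pathway lists; bars are list medians and filled points have an unadjusted p under 0.05. The target genes have the highest median, 0.46 (0.30 without the filter on level), and 8 filled points. The other list medians lie between −0.10 and 0.25. From all scanner files the receptors were above the target genes.

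The plot of pathway lists shows the target genes beside the upstream parts. The order of the list medians depended on the source of values: from all scanner files the target genes were at 0.23 and 0.086 (75th percentile, and normexp with quantile), below the receptors. Of 28 listed NF-kB target genes 18 were tested, 12 higher and 6 lower in spleen. Unadjusted p-values under 0.05 were found for 7 of the higher and 1 of the lower genes, where 3.09% and 2.34% of all genes had one. Among the higher ones, Vcam1 and Ccl3 were below the background level in 3 of the 4 blood samples. Both passed the filter through their spleen values, so this count depends in part on the filter. Without a filter on level the list median was 0.30, against 0.46 with it. The other 10 target genes did not pass the filter, which asks for the background level on 4 arrays and for 3 values per tissue. Il10, Il12b, Nos2 and Ptgs2 were below that level on all 8. Tnf, which was tested and is named after its values were seen, was at 7.28 ± 0.38 in blood and 7.26 ± 0.39 in spleen (SD, n = 4 each).

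Vcam1, an adhesion molecule, was at 6.38, 6.58, 6.57 and 6.98 in blood and at 8.06, 8.63, 9.17 and 9.89 in spleen, a difference of 2.31 ± 0.37 (adjusted p = 0.144, limma). It was below the background level in 3 of the 4 blood samples and passed the filter through its spleen values, so the fitted size and p rest on blood values that are mostly background. Vcam1 is also a marker of red pulp macrophages. Bcl2a1b, a survival gene of a family with near-identical copies that the probe may not separate, differed by 1.49 ± 0.27 (adjusted p = 0.184, limma). Cd83, a surface protein of activated antigen-presenting cells, was at 7.31 ± 0.24 in blood (SD, n = 4) and 8.28 ± 0.12 in spleen (SD, n = 3), and Marcksl1, an actin-binding protein, was higher by 1.59 ± 0.43 (adjusted p of 0.479 and 0.570, limma). The groups of these 4 genes did not overlap, as in 3.3% of all genes, but they were named for having the smallest p of the list. Gadd45b, a stress response gene that restrains JNK signalling, was lower in spleen by 1.02 on the log2 scale, at 10.18 ± 0.36 in blood and 9.16 ± 0.57 in spleen (adjusted p = 0.704, limma).

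Immediate-early genes, which are transcribed within minutes of a stimulus without new protein synthesis, were listed beside the pathway. The list also holds stress genes such as Hspa1a and Dnajb1 and is called immediate-early for short. Of 18 listed 14 were tested, 7 higher and 7 lower in spleen, with a median of −0.01, which was 0.39 over the 5 matching table columns. Fosb and Jun, subunits of AP-1, differed by 1.52 ± 0.50 and 0.94 ± 0.34, and Egr1, a zinc finger factor, by −0.81 ± 0.32 (adjusted p of 0.729, 0.756 and 0.826, limma).

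Markers of other cells that the sort could have let through were set beside these values. The mean levels of the neutrophil list given above did not overlap between tissues. For lists with missing values, the levels are means over the markers with a value on all 8 arrays, a choice made after seeing the data. Those of 8 such Ly-6C-low monocyte markers did not overlap either, at 9.82 to 10.1 in blood and 10.23 to 10.93 in spleen. These markers were not alike: the largest differences were in Itgax (1.80), Pglyrp1 (1.68) and Treml4 (1.23). Cx3cr1 (−0.07), Ace (0.05) and Cd36 (−0.54) were level or lower in spleen. Of the 10 tested in this list, 8 were higher and 2 lower in spleen. Over genes with all 8 values, means of 12 other IkB proteins and negative regulators, 20 adaptors and 16 target genes did not overlap either. How often the means of gene lists overlap was not examined. Mean levels of 9 red pulp macrophage markers overlapped, at 8.33 to 8.78 in blood and 8.64 to 9.15 in spleen. This depended on leaving out Slc40a1, which had no value in spleen 2. Over all 10 tested markers the means were 8.13 to 8.56 in blood and 8.69 to 9.15 in spleen, without overlap. Means of 5 B cell markers overlapped, at 7.35 to 7.58 and 7.12 to 8.01. Those of 5 platelet markers did too, at 7.16 to 9.21 and 6.90 to 7.86. Of the 10 tested red pulp macrophage markers 3 had an unadjusted p under 0.05 and were higher in spleen, and 1, Axl, was lower. The higher ones were Vcam1 as above, Slc40a1 from 6.78 to 8.95 and Spic from 7.89 to 9.37. Of all genes, 3.09% had such a p and were higher in spleen, and 2.34% had one and were lower. Slc40a1, like Vcam1, was below the background level in 3 of the 4 blood samples and passed the filter mainly through its spleen values. The other markers of the list had an unadjusted p above 0.05 (limma). The platelet genes Pf4, Gp9 and Ppbp had means of 9.33, 8.67 and 8.75 in blood and 6.67, 6.93 and 7.66 in spleen. Pf4 had an unadjusted p under 0.05, as 5.43% of all genes did, and was below the background level in 3 of the 4 spleen samples. These red pulp macrophage and platelet genes were named after their values were seen. The 6 tested of 10 T cell markers were at 7.61 to 7.78 and 7.58 to 8.44, with Cd28 and Lck below the background level on all 8 arrays. Of 8 NK cell markers 2 were tested, at 6.68 to 7.37 and 6.98 to 7.91, and Gzma, Gzmb and Klrb1c were below the level on all 8 arrays. The 6 tested of 9 dendritic cell markers were at 9.15 to 9.73 and 9.44 to 9.96, with Siglech below the level throughout. The brightest marker of each list was Itgal (13.61 in blood and 14.19 in spleen), S100a8, Hmox1 (11.92 and 11.89), Cd79b (9.10 and 9.90), Cd4 (9.32 and 9.5), Klrd1 (7.31 and 7.37), H2-Ab1 (12.93 and 13.40) and Gp1bb (11.45 and 11.39). The part of such cells in the levels of Tnfaip3 and the other members was not tested.

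The tested genes whose pattern over the 8 arrays was most like that of Tnfaip3 were Twistnb, Scfd1, Hp1bp3, Asb3 and Snrpc, with a root mean square difference of centred log2 levels of 0.21 to 0.22, where the median of 16387 genes was 0.74. For Nfkb1 the closest were Crebbp, Atp2b2, Tbx21, Lama3 and A630043P06, at 0.05 to 0.08 with a median over genes of 0.45. These genes were picked for the smallest distances, so that they lie below the median was fixed in advance. The distance was not scaled to spread, and Nfkb1 had the narrowest range of the members, so other genes with a narrow range come close to it.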

How the data were processed

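RNA of 4 blood and 4 spleen samples was hybridised to Agilent arrays. The deposited log2 value table was made by the authors; the submitters' processing notes name limma, with no version. All 8 columns had a median of 7.31, and the 5 that match a scanner file ranked probes as its median spot signal did, so the log2 values are read as normalised between arrays without background subtraction, which narrows differences of dim probes. Between 583 and 1426 cells per column were empty and stayed so. The deposited spot intensity files came, per the file headers, from Agilent Feature Extraction 9.5.1.1, and their probe positions are on mm7. They gave probe names and the scanner alternatives.

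Members were found by gene name. Other genes were named by accession through RefSeq for 22951 probes (55.7%), and 18223 kept the file's name. Probes at 6.8 or more on at least 4 of 8 arrays, with 3 values per tissue, were kept (25471), and the brightest stood for its gene. Spleen was compared with blood by lmFit and eBayes (limma 3.58.1, R 4.3.3), unpaired, with Benjamini-Hochberg adjustment over all 18266 genes at 0.05. The code was tested on simulated data.

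The members, lists and rules were chosen with earlier results of these data known. All members are named. From each pathway list the gene with the smallest unadjusted p in each direction, if under 0.05, and up to 3 more are named, and from each marker list the brightest. For Tnfaip3 (the smallest p) and Nfkb1 (the subunit with the highest level) the 5 closest profiles are given. Alternatives covered the replicate block, variance model, array weights, filters, probe rule, each sample left out and the scanner files (75th percentile scaling, or normexp with offset 50 and quantile). Protein sequences and gene structure were not used here.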

Additional observations from a re-analysis of the deposited data

Results flagged for a closer look

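In the blood group, the second Rela probe, A_52_P186119, had 1 sample far from the others: blood 1 at 8.70, where the nearest of the other blood samples was at 6.78 and the background level was 6.8. The gap was 0.887 of the group's range, above Dixon's 95% critical value for 4 samples. It was the only one of 25 groups of member probe values examined in this way to pass, and chance passes about 1 in 20. The scanner file of blood 1 holds another array than this column, so that value could not be checked against spot signals. In that other array the 10 spots of the probe averaged 7.70 (log2, not scaled between arrays), the highest of the 8 files. The next was the file of blood 3, at 6.02. Whether the difference in Rela between tissues is affected was not tested, since the gene is represented by its other probe, at 9.92 in blood 1.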

How the results depend on the processing

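None of the 10 members, of their probes or of the pathway genes passed the adjusted threshold under any alternative run for them. The number of genes past it, 0 as reported by limma, was 13 when the replicate number was a random block, 1 when it was a fixed block, 8 under robust variance with an intensity trend, 9 with array weights, 1 when all 8 arrays had to reach the level, 7 with the mean over probes, 4 with the scanner files scaled to the 75th percentile, 4 with normexp and quantile, and 0 to 3 with single samples left out. The adjusted p of Tnfaip3 ran from 0.427 in the random block to 1.0 in the 5 matching columns, and its difference from 0.11 with normexp to 1.05 without blood 3. No label says that replicate numbers pair the samples. Deviations of same-numbered samples correlated at 0.09 to 0.14, all above those of others, at −0.12 to 0.03, and the random block correlation was 0.21. Whether the numbers stand for mice was not tested, and the unpaired fit was kept as the main one. The member median of 0.25 was 0.25 with the random block and 0.26 with the fixed block. It was 0.73 over the 5 matching columns, 0.80 over the 5 matching scanner files and 0.75 within the shared slide, all of which hold 1 blood sample, and 0.20 to 0.49 with single samples left out, the highest without blood 2. Signs reversed for Nfkb2 (0.033 with array weights, −0.36 to 0.20 with samples left out, 0.84 in the 5 matching columns, 0.46 at the 75th percentile, 0.47 with normexp, 1.08 in the 5 matching scanner files), Nfkbiz (−0.027 to 0.37 with samples left out), Nfkb1 (−0.0082 in the 5 matching columns, −0.048 at the 75th percentile, −0.094 with normexp), Rela (0.25 in the 5 matching columns, 0.0088 at the 75th percentile, 0.35 in the 5 matching scanner files) and Nfkbie (−0.10 at the 75th percentile, −0.19 with normexp). The causes were not tested. At the 75th percentile the median of all genes was −0.11. The target gene median was 0.30 with no filter on level, 0.086 with normexp and 0.90 over the 5 matching scanner files. The receptor median was 0.72 at the 75th percentile and 0.55 with normexp. The immediate-early median was 0.39 in the 5 matching columns and 0.29 in the 5 matching scanner files. Rel could not be fitted without blood 2, 3 or 4, where fewer than 3 blood values were left.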

Other observations

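The scanner files that do not match the table gave other values for the inhibitors. Relative to the 75th percentile of each array (log2), Nfkbia was at 3.66, 2.47, 1.77 and 2.32 in the files of blood 1 to 4 and at 2.61, 2.91, 2.43 and 3.23 in those of spleen 1 to 4. Nfkbib was at 5.06, 2.23, 2.63 and 2.86 in blood and at 4.10, 3.71, 3.35 and 3.52 in spleen. Tnfaip3 was at 3.82, 2.27, 0.88 and 1.49 in blood and at 2.30, 1.93, 2.62 and 2.26 in spleen. For these 3 genes the file of blood 1 was the highest of the 8 files, while blood 1 was the lowest of the 8 columns in the deposited table. These genes were singled out after their values were seen. The labels do not say which deposit holds the intended arrays.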
